A study of Drosophila melanogaster with 4 samples.

Results

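The thick filament genes Mhc, Mlc1, Mlc2, Prm, fln and Mf were followed in dSETD3 KO and control flies. They were taken by gene symbol, and a probe counted as theirs when the study's supplementary lists gave it that symbol or when it targeted the same annotated transcript as such a probe. This rule found 14 of the 32162 probes on the array, for 5 of the 6 genes. No probe could be named for Mf, the thick filament core protein myofilin, which was not analysed here.

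The thick filament of striated muscle is a bundle of myosin molecules whose heads pull on the actin thin filaments. Each myosin has a pair of heavy chains that carry the motor heads, and each head is held by an essential and a regulatory light chain. In insects the myosin rods pack around a core of paramyosin, and in the flight muscle flightin binds to the filament surface and is needed for normal filament length and stiffness. SETD3, the enzyme deleted here, is known as a histidine methyltransferase of actin.

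RNA was taken from 5-day-old virgin female Drosophila melanogaster of 2 genotypes, with 2 biological replicates each, and measured on 4 one-colour Agilent arrays. Control flies were w[1118]. The dSETD3 KO flies had the genotype w[1118];;CG32732-/-, in which CRISPR-Cas9 had replaced the first exon of CG32732 (dSETD3) with a cassette that expresses the fluorescent protein dsRED. They came from 1 knockout line that had been backcrossed to w[1118], and they carried the cassette that the controls lacked. Whole flies were lysed, so fewer muscle cells and less RNA per muscle cell cannot be told apart in any value given here.

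The deleted gene matched the labels. Its brighter probe gave 7810 and 7999 signal units on the control arrays and 9.87 and 4.99 on the dSETD3 KO arrays, and its second probe gave 1090 and 1150 against 3.47 and 3.50. Neither probe was well above background on a dSETD3 KO array. On single arrays, 63.6% to 66.8% of the probes exceeded background clearly, and replicate arrays correlated with r = 0.991 (control) and r = 0.993 (dSETD3 KO) over the tested probes. The controls occupied the first positions of the slide and the dSETD3 KO samples the last, so an effect of position cannot be told apart from one of genotype.

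The way in which probes received a name limits what these values can show. Of the 14 thick filament probes, 12 carry their gene symbol only because the study listed them among the probes that changed at least 2-fold on these same arrays with an unadjusted p under 0.05 (the S2 list). Their changes were used to choose them and are given as a description. The other 2 probes, A_09_P222435 of Mhc and A_09_P142770 of Mlc2, were not on that list and joined through their transcript, but they measured the same RNA on the same arrays.

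Thick filament transcripts were lower in dSETD3 KO flies at each of the 14 probes. Levels are log2 signals after subtraction of the 75th percentile of the array, and a change is the dSETD3 KO mean minus the control mean on that scale. Signal units given for single probes are before this scaling. The 75th percentile was 1630 and 1766 units on control arrays 1 and 2, and 1662 and 1179 on dSETD3 KO arrays 1 and 2. Lower units on dSETD3 KO array 2 are therefore not in themselves a deeper fall. The median change was -1.14, or 2.2-fold lower, against a median of 0.02 over all 21082 probes tested. The changes ran from -0.54 for 1 Mlc2 probe to -1.68 for fln, with standard errors of 0.09 to 0.13 (n = 2 arrays for each genotype). On both dSETD3 KO arrays the level lay below that of both control arrays at 14 of 14 probes, an arrangement found at 37.2% of all tested probes. With limma and Benjamini-Hochberg adjustment over all tested probes, 13 of the 14 were lower at an adjusted p under 0.05, where 16.6% of all tested probes were lower and 3.8% were higher. Since the S2 list chose 12 of the 14 by this contrast, nothing is read from these counts. Without control replicate 1, or without control replicate 2, limma made 0 calls among the 14 probes, while 13 and 14 of them had an unadjusted p under 0.05. The median change was then -1.17 and -1.13. In those fits the control arm is 1 array, which is assumed to vary like the dSETD3 KO pair, so a lost call there is not a smaller fall.

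**Figure D1:**
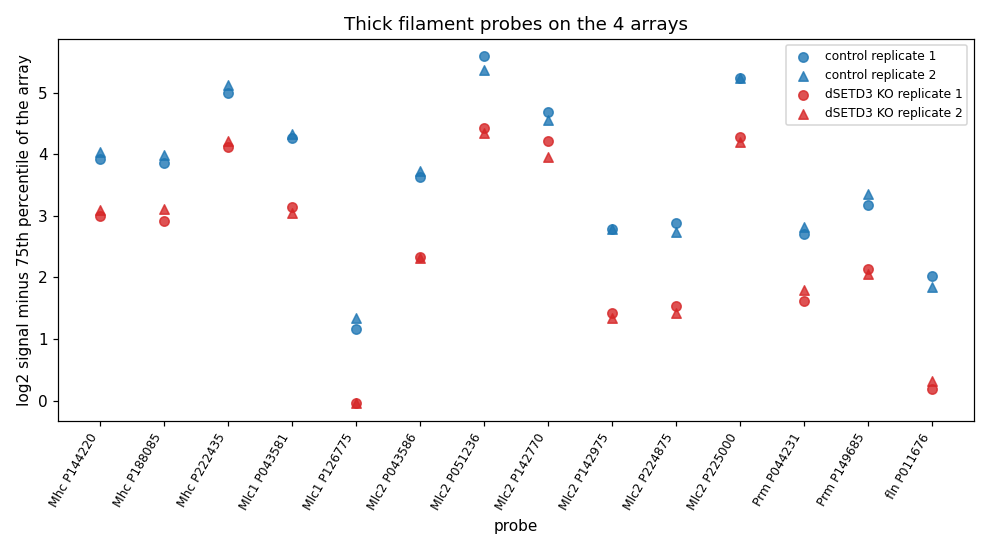
Level of each thick filament probe on each of the 4 arrays, as log2 signal relative to the array's 75th percentile. Points are single arrays, coloured by genotype. At 14 of 14 probes both dSETD3 KO points sit below both control points, as at 37.2% of all tested probes. The gap runs from 0.35 for Mlc2 probe A_09_P142770 to 1.52 for fln. Of the 14 probes, 12 were chosen by the S2 list for their change.

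Mhc encodes the muscle myosin heavy chain, the motor and rod of the thick filament, and its isoforms arise by alternative splicing of a single gene. Its 3 probes target transcript FBtr0080906, which is 1 of 21 Mhc transcripts in the RefSeq annotation. Probe A_09_P222435, which was not on the S2 list, gave 52000 and 61327 signal units on control arrays 1 and 2, and 28828 and 22030 on dSETD3 KO arrays 1 and 2. After scaling the groups did not overlap either, with levels of 5.00 and 5.12 against 4.12 and 4.22. Of the tested probes, 98.3% were dimmer than this one. Its change of -0.89 (SE 0.10, 1.85-fold lower) passed the limma test at an adjusted p of 0.018, with both dSETD3 KO arrays below both controls. That adjusted p ranged from 0.0081 to 0.31 over the alternative settings and was 0.042 with the replicate number as a block. Without control replicate 1 the change was -0.95 at an adjusted p of 0.075 by limma, and without control replicate 2 it was -0.83 at 0.14, with the spread again taken from the dSETD3 KO pair.

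The other Mhc probes, both chosen by the S2 list, moved by nearly the same amount. Probe A_09_P144220 gave 24600 and 28940 on the controls against 13170 and 10014 on the dSETD3 KO arrays, a change of -0.94 (SE 0.10). Probe A_09_P188085 gave 23500 and 28125 against 12542 and 10189, a change of -0.91 (SE 0.12). Across its 3 probes Mhc differed by only 0.05 on the log2 scale, less than the standard error of any of them. Its median fall of 1.88-fold was the smallest among the 5 genes. Probes share the arrays, so here and below a standard error gives a scale and no test of a difference between probes.

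Mlc1 encodes the essential, or alkali, light chain, which stiffens the lever arm of the myosin head. It has 3 transcripts in RefSeq, and its probes are annotated to different ones. The probe for FBtr0085196, A_09_P043581, was spotted at 2 places and gave 31197 and 35338 on the controls against 14668 and 9777 on the dSETD3 KO arrays. The probe for FBtr0344131, A_09_P126775, was dimmer, with 3680 and 4456 against 1614 and 1156. Both sets of signals were separated by genotype before and after scaling. The changes were -1.19 (SE 0.09) for the first and -1.29 (SE 0.10) for the second. The difference of 0.10 between the probes was about the size of their standard errors.

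Mlc2 encodes the regulatory light chain of muscle myosin, whose phosphorylation tunes the stretch activation of fly flight muscle. It had the most probes, 6, all annotated to FBtr0089747, the only Mlc2 transcript in RefSeq. They did not fall equally, since their changes spanned 0.87 on the log2 scale. The probe outside the S2 list, A_09_P142770, gave 42100 and 41442 on the controls against 30685 and 18320 on the dSETD3 KO arrays. The genotypes did not overlap at this probe after scaling, with levels of 4.69 and 4.55 against 4.21 and 3.96, but its change of -0.54 (SE 0.13, 1.45-fold lower) missed the limma threshold at an adjusted p of 0.054. Over the alternative settings the adjusted p of this probe ran from 0.031 to 0.31 (0.031 by limma without dSETD3 KO replicate 1).

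The remaining 5 Mlc2 probes were all on the S2 list, and 3 of them showed the larger falls. Probe A_09_P142975 gave 11300 and 12170 against 4445 and 2978, a change of -1.41 (SE 0.09). Probe A_09_P043586 gave 20243 and 23497 against 8346 and 5857, a change of -1.36 (SE 0.09), and probe A_09_P224875 gave 12000 and 11780 against 4833 and 3175, a change of -1.32 (SE 0.10). The last pair were brighter and fell less. Probe A_09_P051236 gave 78500 and 73193 against 35740 and 23920, a change of -1.10 (SE 0.11), and probe A_09_P225000 gave 61100 and 66823 against 32266 and 21548, a change of -1.00 (SE 0.09). Within Mlc2 the 3 brightest probes, A_09_P142770 among them, thus had the 3 smallest falls. Whether their brightness bears on the size of the fall was not tested.

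Prm encodes paramyosin, the coiled-coil rod of the filament core, and from an internal promoter the shorter miniparamyosin. Both of its probes target FBtr0076593, 1 of 5 Prm transcripts, and both were on the S2 list. Probe A_09_P044231 gave 10600 and 12433 on the controls against 5097 and 4088 on the dSETD3 KO arrays, a change of -1.05 (SE 0.11). Probe A_09_P149685 gave 14800 and 17957 against 7262 and 4878, a change of -1.18 (SE 0.10). The genotypes were apart at both probes, and the 0.12 between the changes was close to their standard errors.

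The flightin gene fln, which is active in the indirect flight muscles, showed the largest fall among the 14 probes. Its only probe, A_09_P011676 for FBtr0074910, was on the S2 list and gave 6635 and 6317 on the controls against 1896 and 1468 on the dSETD3 KO arrays. After scaling, the levels were 2.03 and 1.84 in controls and 0.19 and 0.32 in dSETD3 KO flies, a change of -1.68 (SE 0.11), or 3.20-fold lower. The 2 spots of this probe differed by 0.4% to 3.4% within an array, which measures spot noise only and not the spread between flies. Over the probes with a pair of spots the widest disagreement was 13.1%, for Mlc1.

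**Figure D2:**
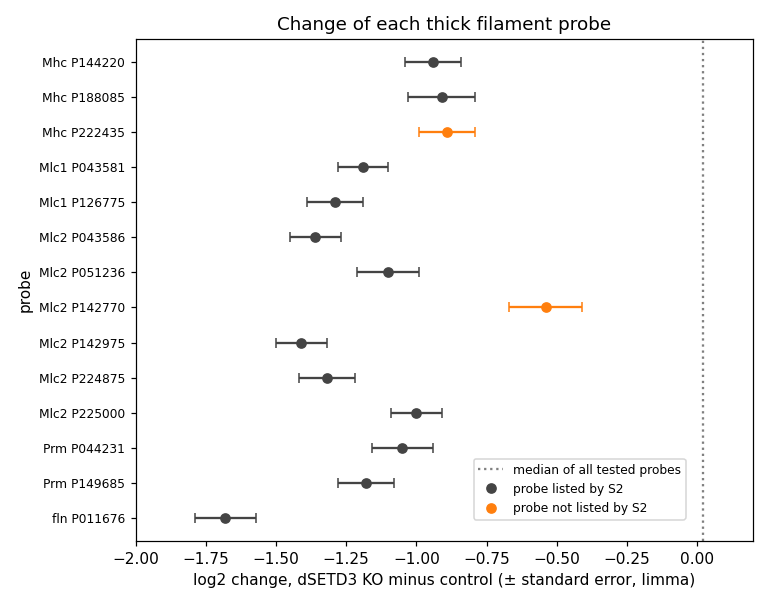
Log2 change (dSETD3 KO minus control) of each of the 14 thick filament probes with its standard error from limma, n = 2 arrays for each genotype. Dark points are the 12 probes chosen by the S2 list and orange points the 2 probes that were not, and the dotted line marks the median of 0.02 over all tested probes.

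Ordered by the median change of their probes, fln came first with -1.68, followed by Mlc1 with -1.24, Mlc2 with -1.21, Prm with -1.11 and Mhc with -0.91. The order of Mlc1, Mlc2 and Prm is within the spread of their probes, since the 6 Mlc2 probes span the values of both neighbours. The Mhc probes, at -0.94 to -0.89, lay outside the range of the Prm and Mlc1 probes but inside that of the Mlc2 probes, -1.41 to -0.54. The nearest Prm probe, at -1.05 (SE 0.11), was only about 1 standard error away. The single fln probe lay outside the range of all the others. No test was made between genes, because the S2 list selected on the size of the change.

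The same holds for the edge of that list. Recomputed as a ratio of mean intensities in the deposited value table after quantile normalization, the listed probe with the smallest fall was Mhc A_09_P188085 at 1.97-fold, just under the limit of 2-fold under this normalization. The next were Mhc A_09_P144220 at 1.99-fold and Mlc2 A_09_P225000 at 2.02-fold. Just outside the list was Mhc A_09_P222435 at 1.88-fold, and Mlc2 A_09_P142770 followed at 1.47-fold. The third Mhc probe was therefore absent from the list at a fall that was close to that of the listed pair. Counted on the scale used here, 9 of the 14 probes were at least 2-fold lower, as were 5.38% of all tested probes.

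Both dSETD3 KO arrays carried the fall. With each probe centred on its control mean, the 14 probes had a median of -1.14 on dSETD3 KO array 1 and -1.18 on array 2, and of -0.04 and 0.04 on the control arrays. The dSETD3 KO arrays differed from each other by -0.25 to 0.20 at single probes, and array 2 was the lower at 8 of 14. The control arrays differed by -0.22 to 0.16. By gene, Mhc fell more on array 1 (-0.99) than on array 2 (-0.83), whereas Mlc2 fell less on array 1 (-1.16) than on array 2 (-1.26). With 2 arrays against 2, an exact permutation test of a single probe cannot go below p = 0.33.

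The thick filament probes were bright, with 11 of the 14 in the brightest eighth of the tested probes. Brightness is a property of the probe as well as of its transcript, as the 6 Mlc2 probes for 1 transcript show, so it is not read as abundance. The other 3 were the fln probe, the dimmer Mlc1 probe and an Mlc2 probe, and the lowest of them was brighter than 70.0% of the tested probes. Brightness and change were related over the whole array. The median change was -0.35 in the dimmest eighth and 0.12 in the brightest, and in the brightest eighth 4.97% of probes were lower at an adjusted p under 0.05 with limma, with 1.44% at least 2-fold lower. Of the 11 thick filament probes there, 10 were lower at that threshold and 6 were at least 2-fold lower. As above, nothing is read from these counts, since the S2 list chose most of these probes for their fall.

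**Figure D3:**
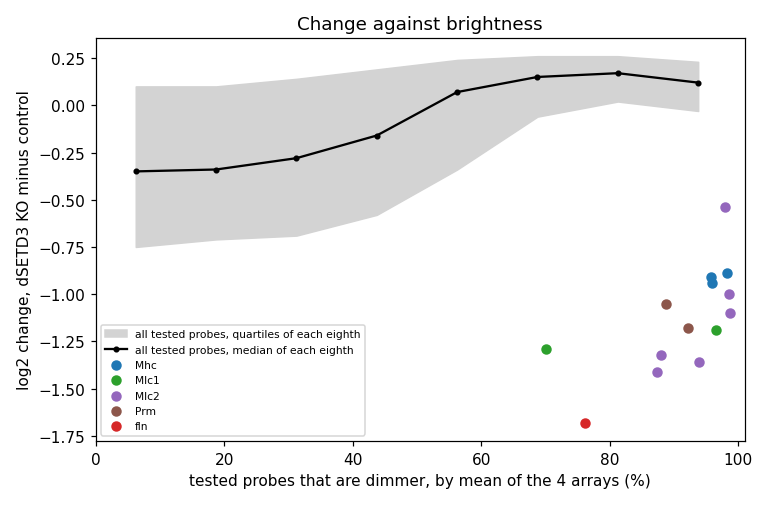
Log2 change (dSETD3 KO minus control) against brightness, given as the percentage of tested probes that are dimmer, for the 14 thick filament probes coloured by gene. The black line joins the medians of the 8 brightness groups of all 21082 tested probes and the grey band spans their quartiles. The 14 probes lie between -1.68 and -0.54, and 12 of them were chosen for a large fall.

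Probes for partners of the thick filament were mostly lower too, but part of them were named by the S2 list, which selected on this change. The thin filament list, which holds actins, tropomyosins and troponins, had 27 tested probes for 11 of its 15 genes. Of these, 21 were lower and 0 higher at an adjusted p under 0.05 with limma, beside 16.6% lower and 3.8% higher over all tested probes, and their median change was -1.00. They ranged from -2.49 for Act88F, the actin of the flight muscle, to 0.36 for a probe of the tropomyosin gene Tm1, which also makes cytoplasmic isoforms. Of the 13 thin filament probes outside the S2 list, 7 were lower, again beside 16.6% of all tested probes, and their median was -0.42. Most of these 13, those of Tm1, up and wupA, belong to genes that also have a listed probe. The list of Z-disc, titin-like and other sarcomere proteins had 25 tested probes for 6 of 13 genes, with 18 lower and 0 higher and a median of -0.88. Here 19 probes were outside the S2 list, with 12 lower and a median of -0.80, where the share over all tested probes was the same 16.6%. Among these 19, the probes of Strn-Mlck and zormin again belong to genes with a listed probe. Neither the counts and medians over both whole lists nor their off-list counts are thus independent of S2, and nothing is read from them. As for the members, the counts are 0 without control replicate 1 or without control replicate 2, since limma then made 0 calls over the whole array, where 7183 and 4817 probes had an unadjusted p under 0.05. Strn-Mlck, a titin-like gene that also encodes a kinase related to myosin light chain kinase, ranged from -1.28 to -0.02 over its probes.

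Probes of the muscle calcium and energy list did not all move one way. Calcium and energy genes had only 3 tested probes, for 2 of 9 genes. The probe of Scp1, a calcium-binding protein of the sarcoplasm, was lower by limma with a change of -1.07. Both probes of Ca-beta, a calcium channel subunit, were higher by limma with changes of 1.48 and 1.07. These ran from 0.83 to 1.84 and from 0.72 to 1.42 over the 7 scalings and value sources compared. Both were dim, with 34.6 and 40.4 on the controls against 92.5 and 80.1, and 54.7 and 60.6 against 111 and 89.1. The Scp1 probe gave 109000 and 119512 against 49678 and 40662. In whole flies the tissue behind the Ca-beta signal was not resolved.

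Myosins outside muscle gave a further comparison. The gene sqh, which encodes the regulatory light chain of non-muscle myosin, gave 13746 and 14921 on the controls against 15400 and 9739 on the dSETD3 KO arrays at a probe outside the S2 list. The genotypes overlapped, and the change of 0.05 (SE 0.10) had an adjusted p of 0.70 by limma. Its sign depended on the scaling, from -0.10 to 0.35 over the 7 compared. The gene ninaC, a myosin of photoreceptor cells, gave 1790 and 2080 against 837 and 674, a change of -1.08, at a probe of the S2 list. The other 6 genes of this list had no nameable probe. Whether Mlc2 and sqh, or any pair of these genes, differed in response was not tested.

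**Figure D4:**
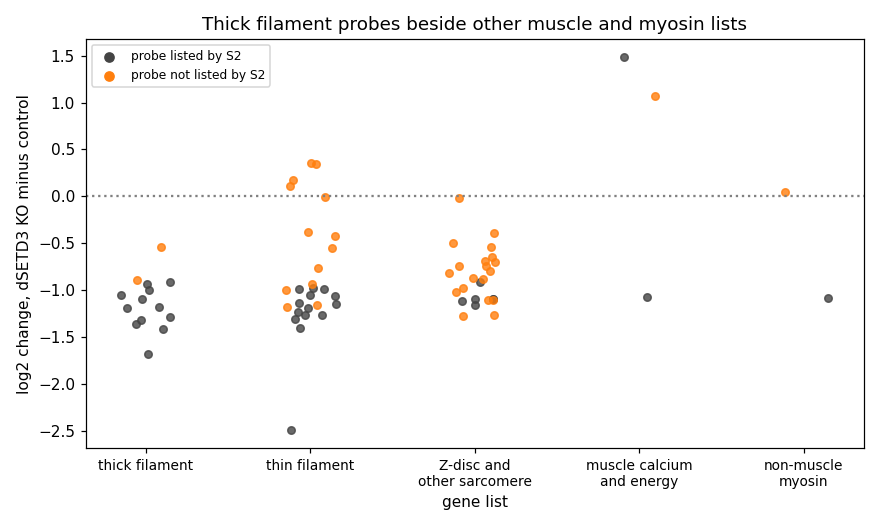
Log2 change (dSETD3 KO minus control) of each tested probe in the thick filament list and in the lists of other muscle and myosin genes, with the sideways spread of points only for legibility. Dark points are probes chosen by the S2 list and orange points are not. The 13 orange points of the thin filament list run from -1.18 to 0.36. The thick filament list has only 2, at -0.89 and -0.54, so the spread of the lists is not compared.

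Markers of other cells moved with genotype as well. Of the 11 probes of follicle cell genes of the ovary, mostly eggshell proteins, 10 were higher and 0 lower by limma at an adjusted p under 0.05, where 3.8% of all tested probes were higher. Their median change was 3.09, and it ran from 2.11 to 3.40 over the 7 scalings and value sources. Their summed signal, relative to the array's 75th percentile, was 55.5 and 68.6 on the control arrays and 197 and 220 on the dSETD3 KO arrays. Of the 15 photoreceptor probes, 11 were lower and 1 higher, beside 16.6% and 3.8% of all tested probes, with a median change of -1.08, and their summed signal went from 29.3 and 32.0 to 12.1 and 12.8. The thick filament sum over 14 probes was 241 and 240 on the controls and 121 and 118 on the dSETD3 KO arrays. The 5 fat body probes had a median change of 0.30, from 0.06 to 0.60 over those settings, with 1 lower and 2 higher, and summed to 96.4 and 87.7 against 119 and 120. Most follicle cell and photoreceptor probes were again named by the S2 list, so their counts are not independent of it. Off that list, 1 of 2 follicle cell probes was higher and 3 of 6 photoreceptor probes were lower by limma, against the shares of 3.8% higher and 16.6% lower over all tested probes. Every off-list photoreceptor probe, and the off-list follicle cell probe of Cp7Fb, belongs to a gene that also has a listed probe. Nothing is therefore read from these off-list counts either. None of these lists was at background in a group, and the part played by a shift in tissue make-up in the fall of the thick filament genes was not tested.

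The genes whose pattern was most like the median thick filament profile were sought among 1228 named genes, by Euclidean distance over the 4 arrays after each probe was centred on its own mean. The nearest was the troponin I gene wupA at a distance of 0.056, followed by Strn-Mlck at 0.058, inaF-D at 0.062, CG9640 at 0.064 and CG4000 at 0.077. Apart from that of CG9640, these probes were on the S2 list. The members themselves lay at 0.061 (Mlc1 A_09_P043581) to 0.632 (Mlc2 A_09_P142770). The nearest probes of wupA and Strn-Mlck were closer to the median than any member probe. Only the nearest probe of each gene was ranked. Over all tested probes the changes ran from -1.27 to -0.76 for wupA and from -1.28 to -0.02 for Strn-Mlck. Among the 1029 genes named by the other supplementary list and not by S2, the nearest were CG9640 at 0.064, CG34393 at 0.111, CG15617 at 0.129, CG34203 at 0.130 and Cyp301a1 at 0.132. With 4 arrays in 2 groups the measure follows mainly the size of the change. At the ranked probes it was -1.14 for wupA, -1.12 for Strn-Mlck and -1.11 for CG9640.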

How the data were processed

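The authors deposited, for each array, the spot intensities that Agilent Feature Extraction 10.7 made (version per the labels), background-subtracted and not normalized between arrays, with median pixel intensities for spots and for the background around them. The deposited flags for outliers and for spots well above background (coded values of another kind) were used as filters. A deposited value table holds 1 intensity per probe and array, without background subtraction. The methods name Student tests and no normalization.

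Control spots and outlier spots were left out, repeated spots of a probe were averaged as log2 intensities, and arrays were scaled by subtracting their 75th percentile. A probe entered the fit when both arrays of either genotype had it well above background, which left 21082 of 32162. The two-sided test was that of limma 3.58.1 (lmFit, eBayes) under R 4.3.3 for genotype alone, with Benjamini-Hochberg adjustment. The fit was tested on simulated data. Python 3.11.15, pandas 2.3.3, numpy 2.4.6 and matplotlib 3.10.9 made the tables and figures. Because there are only 2 arrays for each genotype, their number limits the precision.

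Probe names came from the study's supplementary lists S1 (1992 entries used) and S2 (273 entries) and from shared transcripts, for 2426 probes and 1626 genes. The authors' fold changes and p-values were not read, but membership of S2 rests on them and so helped to decide which probes could be named. Every member probe is given. From each list of other genes, the largest fall, the largest rise or the median could be named, and for likeness the nearest 5 genes, 1 probe per gene. The members and lists were chosen with earlier results of these data known. The files use an older genome release than the RefSeq annotation, so no coordinates are given.

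Alternatives were quantile, cyclic loess and median scaling, normexp with offset 50 on the median spot intensity, the value table, no filter on dim probes, outlier spots kept, Student and Welch tests, the replicate block, and each array left out in turn. Quantile normalization of the value table and the crossed pairing were chosen after seeing the data.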

Additional observations from a re-analysis of the deposited data

How the results depend on the processing

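Each thick filament probe was refitted under 16 other settings, and the change was negative in all 224 of these values, between -1.77 and -0.24. Settings that alter only the test, the filter or the pairing return the main change again. As 12 of the 14 probes were also chosen for their change, nothing is read from this count. The median change of -1.14 was -1.31 with cyclic loess and -0.83 with the array median subtracted, where the median of all probes was itself 0.32. Taking 1 value per gene it was -1.21, over the 2 probes outside the S2 list -0.71, and with each array left out it ran from -1.18 to -1.13. Of the 14 probes, 9 were at least 2-fold lower, but 4 with the array median subtracted.

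The 13 probes lower at an adjusted p under 0.05 by limma became 0 with the Welch test, with the methods' t-test and with no filter on dim probes (13, 13 and 14 at an unadjusted p under 0.05). Leaving out each array in turn gave 0 to 14, with 0 without control replicate 1 or control replicate 2. Over all tested probes, 3497 were lower and 801 higher. With the Welch test 0 were lower and 0 higher, with the methods' t-test 2 and 0 (3298 and 6404 at an unadjusted p under 0.05, against 9265 by limma), with no filter 26 and 38, and with normexp 1419 and 412. The counts higher were 1411 with quantile scaling, 1495 with cyclic loess, 8296 with the array median subtracted and 2187 with quantile normalization of the value table. With each array left out, 0 to 4163 were lower and 0 to 981 higher.

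Replicate numbers were shared by the genotypes, and nothing in the labels ties same-numbered arrays. Their deviations from the genotype means correlated with r = -0.21. With 2 arrays for each genotype this value cannot decide whether the numbers pair the samples. With the replicate number as a block, 13 member probes were lower, and over all probes 2509 were lower and 382 higher. With the crossed pairing, chosen after seeing the data, the counts were 12, 1400 and 319. The cause of none of these differences was tested. The members were well above background on all 4 arrays, and whether their signal level bears on these differences was not tested. With 1 control array left out, the spread came from the dSETD3 KO pair alone.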
